A study of Homo sapiens with 11 samples.

Results

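H3K27me3, the trimethylation of lysine 27 on histone H3, was profiled by ChIP-seq in HK2 cells, and the 2 H3K27me3 samples described here were those whose titles name that mark, out of 11 samples in the study. HK2 is an immortalised line of human proximal tubule epithelium, grown untreated in DMEM-F12 with serum and a little DMSO, so all groups share 1 line and 1 condition. The same cells were profiled for H3K4me3 and H3K27ac, with 2 samples each, and for RNA, with 2 libraries. Input DNA and H3K27ac HiChIP samples were not analysed here. The antibody of both H3K27me3 samples was C15410069 (Diagenode). The earlier sample has no replicate number in its title and is called replicate 1 here, and the other is replicate 2. Nothing in the labels says whether the replicates came from separate cultures, so the spread between them may be technical. Each peak list gives chromosome, start and end in hg19 (GRCh37) without a height or a score, so the depth behind a peak is unknown.

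The mark is written by polycomb repressive complex 2, whose catalytic subunit is EZH2 or EZH1, and it is read by chromobox proteins of polycomb repressive complex 1. In differentiated cells it is known for lying over CpG-rich start sites of developmental regulators that the cell type does not use, sometimes in domains that cover a whole gene, and more thinly over silent intergenic chromatin. A start site that carries it together with H3K4me3, a mark of promoters, is called bivalent.

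As an identity check of HK2, 34 of 35 marker genes fixed for the kidney and other cell types were in the annotation used. The kidney and epithelial genes PAX8, KRT8 and GGT1 were expressed, with PAX8 at 100.2 and 104.1 FPKM in the RNA-seq libraries (fragments per kilobase of transcript, scaled to the mapped fragments of each library). The endocytic receptor gene LRP2 and the transcription factor gene HNF4A, both defining genes of the proximal tubule in kidney, were listed at 0 in both libraries, and the epithelial cadherin gene CDH1 stood at 0.210 and 0.283 FPKM while the mesenchymal gene VIM stood at 709 and 1133. The leukocyte genes PTPRC and CD3E and the endothelial gene KDR were listed at 0 in both libraries, while CD68, a gene of macrophage lysosomes, stood at 42.5 and 36.8 FPKM. In bulk RNA, fewer cells of a type and less RNA per cell cannot be told apart.

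Sequences illustrate the kinds of region that carried the mark. Each is 200 bases of GRCh37, free of annotated exons, with every CpG in capitals. The first 2 lie directly upstream of the outermost start site of a gene whose whole body was covered in both replicates, and all 200 bases of each were inside H3K27me3 peaks of both. FEV (chr2:219849907-219850106, minus strand) encodes an ETS factor of serotonergic neurons, and ATOH1 (chr4:94749704-94749903, plus strand) a basic helix-loop-helix factor of hair cells and cerebellar neurons. The last is the centre of the widest intergenic stretch on chromosome 10 that both replicates covered and whose centre lay over 10 kb from any start site (chr10:115003208-115003407, plus strand).
FEV: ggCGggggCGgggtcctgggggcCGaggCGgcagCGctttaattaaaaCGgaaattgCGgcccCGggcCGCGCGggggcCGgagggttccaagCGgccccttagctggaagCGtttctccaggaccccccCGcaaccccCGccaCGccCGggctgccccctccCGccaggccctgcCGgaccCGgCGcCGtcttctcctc
ATOH1: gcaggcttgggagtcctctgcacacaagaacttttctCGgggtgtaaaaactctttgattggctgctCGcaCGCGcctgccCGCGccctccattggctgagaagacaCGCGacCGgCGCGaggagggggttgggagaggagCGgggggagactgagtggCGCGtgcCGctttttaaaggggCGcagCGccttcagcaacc
chromosome 10 stretch: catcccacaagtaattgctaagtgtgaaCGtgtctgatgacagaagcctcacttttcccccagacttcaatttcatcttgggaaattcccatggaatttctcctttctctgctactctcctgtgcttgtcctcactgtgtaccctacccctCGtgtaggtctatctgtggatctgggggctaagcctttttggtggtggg
The windows hold 23 CpGs at FEV and 17 at ATOH1, against 2 in the intergenic stretch, so windows inside the mark differed widely in CpG content. The contrast was smaller in other windows. Intergenic windows chosen in the same way held 9 CpGs on chromosome 1 and 7 on chromosome 20. Upstream windows of the fully covered genes named below ranged from 6 CpGs at FEZF2 to 27 at EGR4. Over all 20144 protein-coding genes the median was 12 CpGs in the 200 bases upstream, with 13 for genes marked at a start site in both replicates, 16 for unmarked genes at 1 FPKM or more and 3 for unmarked genes under 0.1 FPKM. The intergenic stretch was 9.19 kb wide, lay 82.3 kb from the nearest start site, and sat in a peak of 32.9 kb in replicate 1 and 9.19 kb in replicate 2.

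The replicates differed in the number of peaks and, above all, in their width. The paper lists more aligned read pairs for its first H3K27me3 replicate than for its second. In both, only a small share of mapped reads fell in peaks. Whether depth accounts for the differences in peak number and width was not tested. On chromosomes 1 to 22, X and Y, replicate 1 held 45858 peaks that covered 88.3 Mb (3.09% of the sequenced genome), and replicate 2 held 32639 peaks that covered 26.7 Mb (0.933%). The median width was 1181 bp in replicate 1 (interquartile range 677 to 2291 bp, range 256 to 46258 bp) and 535 bp in replicate 2 (347 to 870 bp, range 218 to 24982 bp). The other marks also had the narrower median in replicate 2, at 434 against 1194 bp for H3K4me3 and 657 against 1357 bp for H3K27ac. Peaks of at least 4 kb made up 4913 of the peaks and 38.6% of the peak bases in replicate 1, but 512 of the peaks and 11.9% of the bases in replicate 2. Peaks under 500 bp were 15.8% and 45.6% of the lists. As listed, peaks of at least 4 kb were thus a minority of the peaks and of the peak bases in both replicates. When peaks of a replicate with gaps of up to 3 kb were joined, 31602 and 21142 regions remained. Their median widths were 1636 and 668 bp and their maxima 92382 and 63095 bp. At least 8 kb was reached by 3570 and 954 joined regions, against 1106 and 86 single peaks. The share of bases in wide regions after joining was not computed.

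Of the replicate 1 peaks, 15075 or 32.9% (95% Wilson interval 32.4 to 33.3%, counting error only) overlapped a replicate 2 peak by at least 1 bp, and of the replicate 2 peaks 21871 or 67.01% (66.5 to 67.5%) overlapped a replicate 1 peak. The bases in peaks of both replicates, called shared bases below, came to 19.2 Mb, which was 21.8% of the replicate 1 bases and 72.1% of the replicate 2 bases. For comparison, the other list covered 0.933% of the genome in the first case and 3.09% in the second. Overlap depended on width. In replicate 1 it was 10.3% for peaks under 500 bp and 98.4% for the 1106 peaks of at least 8 kb, and in replicate 2 it was 53.5% and, for 86 peaks, 100% (95.7 to 100%). Replicate 1 peaks without a partner in replicate 2 were narrower (median 933 against 2533 bp) and less often CpG-rich at their centre (0.510% against 7.97%) than those with one. In replicate 2 the same medians were 417 and 632 bp, and the CpG-rich shares 3.35% and 8.23%. A peak was called CpG-rich where its central 200 bp had a GC content of at least 50% and at least 0.6 of the CpGs that its base composition predicts, which 1.85% of genome windows of that length did. Requiring 50% of the peak to be covered lowered the overlap of replicate 1 to 9.73%.

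**Figure D1:**
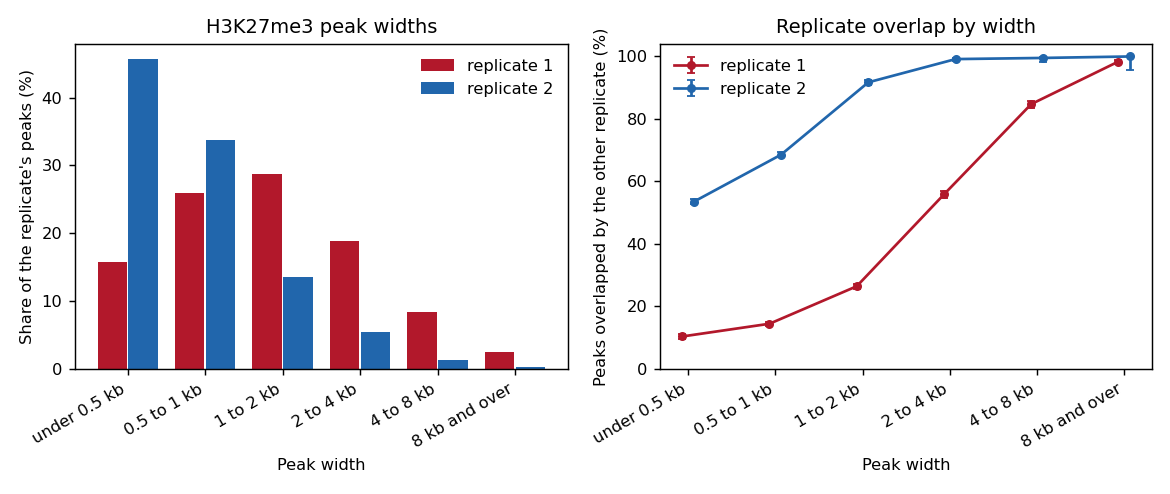
Left, share of each replicate's H3K27me3 peaks (y axis, %) by peak width (x axis) for replicate 1 (red) and replicate 2 (blue). Right, share of the peaks in each width class that the other replicate overlapped by at least 1 bp, with 95% Wilson intervals as bars. The lowest and highest classes are 10.3% and 98.4% in replicate 1, and 53.5% and 100% in replicate 2.

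H3K27me3 peaks were spread unevenly over the chromosomes, and in a like order in both replicates. Over 41 chromosome arms (Y left out), replicate 1 had from 3.20 peaks per sequenced Mb on Xq to 70.7 on 20p, with a median of 12.7, and replicate 2 from 1.65 on Xq to 80.1 on 20p, with a median of 8.86. The densest arms after 20p were 20q (52.3 and 64.7 per Mb in replicates 1 and 2), 10q (39.9 and 45.3) and 1q (36.05 and 34.1), while 10p on the same chromosome as 10q had 4.87 and 2.64. Chromosomes 1, 10 and 20, which make up 14.6% of the sequenced genome, held 30.7% of the replicate 1 peaks and 43.1% of the replicate 2 peaks. The highest arm exceeded the lowest 22.1-fold and 48.5-fold in the H3K27me3 replicates, and 4.63-fold and 6.01-fold in the H3K27ac replicates. On chromosome 20, H3K27ac density was 1.31 and 1.45 times that of all arms, against 3.74 and 6.21 times for H3K27me3. H3K4me3 differed between its own replicates there, at 1.56 and 3.87 times, and its replicate 2 reached 140 peaks per Mb on 20q where replicate 1 had 18.4.

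Most of the excess in peak number lay in peaks without CpG-rich centres. Such peaks ran at 70.03 and 78.6 per Mb on 20p in replicates 1 and 2, which was 5.77 and 9.33 times the median of the arms, whereas CpG-rich peaks on 20p were 1.40 and 1.85 times the median. On 20q, CpG-rich peaks stood at 1.143 and 1.805 per Mb, against medians of 0.490 and 0.804 over the arms. At start sites both kinds were marked more often on 20p. Among protein-coding genes under 0.1 FPKM whose start site was not CpG-rich, 47.5% of 40 on 20p were marked in both replicates, compared with 11.3% of 97 on 3p and 5.49% of 182 on Xq, which are arms of low density. Among those with a CpG-rich start site the shares were 89.5% of 19 on 20p, 45.5% of 44 on 3p and 36.7% of 49 on Xq. Arms of low density varied widely in that class, with 19.4% of 31 on 19p and 76.2% of 21 on 18q. Over all protein-coding genes under 0.1 FPKM, the shares were 13.8% without and 55.6% with a CpG-rich start site. Because arms differ so much, several results below are also given without chromosomes 1, 10 and 20, an alternative chosen after the densities were seen. Peaks per Mb were not corrected for the copy number of an arm, which was not measured here, so more copies and more mark per copy cannot be told apart.

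**Figure D2:**
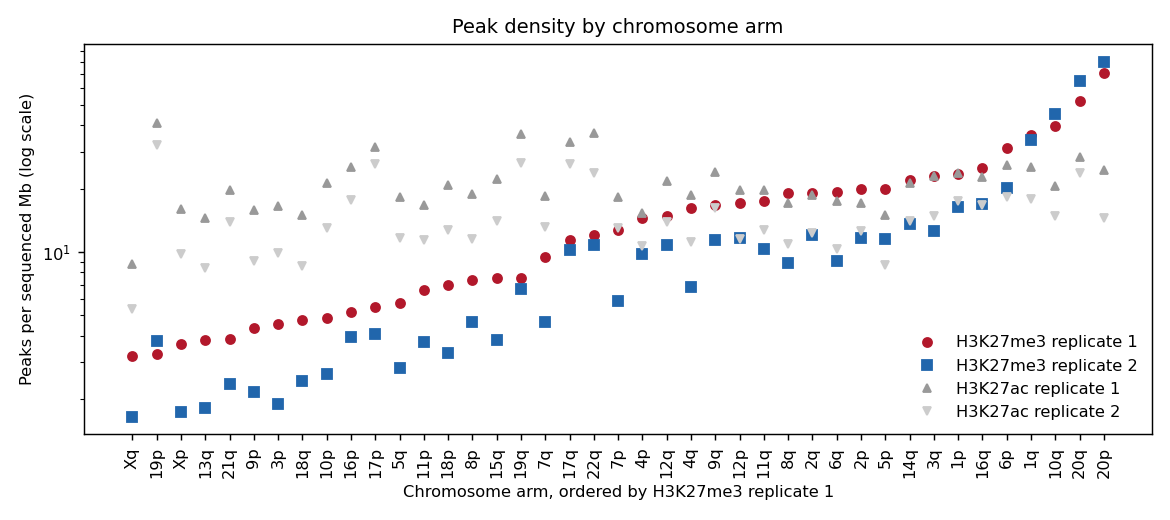
Peaks per sequenced Mb (y axis, log scale) on each of 41 chromosome arms (x axis, ordered by replicate 1) for H3K27me3 replicates 1 and 2 (red circles, blue squares) and H3K27ac replicates 1 and 2 (grey triangles). Both H3K27me3 replicates end on 10q, 20q and 20p, and replicate 2 lies above replicate 1 on those 3 arms.

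Less of the H3K27me3 lay in genes than the genome would give, and more of it at start sites and, over all chromosomes, between genes. Gene bodies of all annotated types took 52.4% of the replicate 1 bases, 54.4% of the replicate 2 bases and 55.7% of the shared bases, against 61.9% of the sequenced genome. The rest, outside any gene, was 47.6%, 45.6% and 44.3%, against 38.1%. Bases within 1 kb of an annotated transcription start site (TSS) made up 10.4%, 19.7% and 22.8% of those sets, against 7.503% of the genome. Introns over 1 kb from a TSS were the class furthest below the genome, with 41.2%, 35.1% and 33.6% against 52.3%, and exons were close to it, with 3.18%, 3.83% and 4.08% against 3.36%. Intergenic bases over 1 kb from a TSS took 45.2%, 41.4% and 39.6% against 36.9%. The replicate with narrower peaks and the shared bases were thus the more concentrated at start sites. The GC content followed the same order, with 40.9% in the genome, 43.3% in replicate 1, 48.6% in replicate 2 and 49.2% in the shared bases, and so did the CpG density, with 9.85, 12.5, 22.7 and 25.4 per kb.

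**Figure D3:**
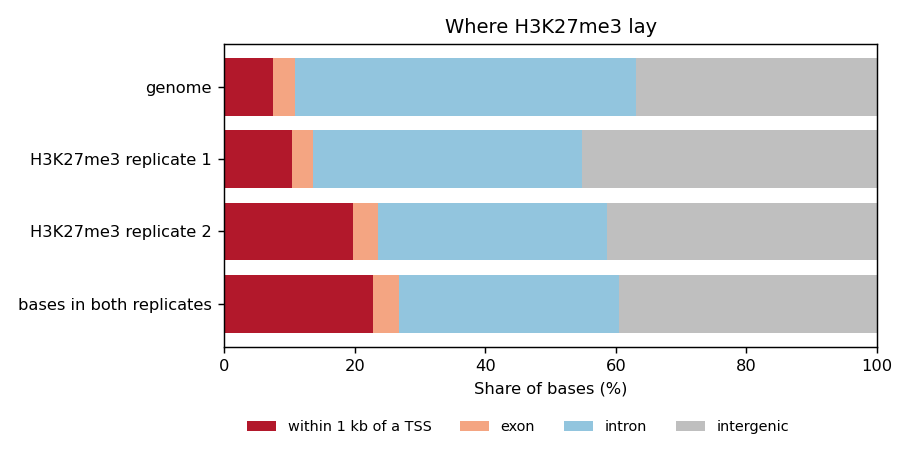
Share of bases (x axis, %) within 1 kb of a TSS, in exons, in introns and between genes for the sequenced genome, each H3K27me3 replicate and the bases in peaks of both replicates. The share near a TSS is 7.503% in the genome and 22.8% in the shared bases, and the intron share 52.3% and 33.6%.

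For the shared bases, most of the gap to the genome was on the dense chromosomes, whereas in replicate 1 much of it was found on the others as well. On chromosomes 1, 10 and 20 the genic share of the shared bases was 50.2%, which was 12.9 percentage points under those chromosomes' own 63.1%. On the other chromosomes it was 60.6% against 61.7%, a gap of 1.10 percentage points, and there 31.1% of the shared bases lay within 1 kb of a TSS. The intergenic share over 1 kb from a TSS turned round on these chromosomes, with 33.1% of the shared bases and 36.7% of the replicate 2 bases against 37.1% of their sequence, while replicate 1 stayed above it at 42.3%. In the replicates taken alone the gap on the other chromosomes was 6.71 points in replicate 1 and 3.74 points in replicate 2. By peak midpoint, 45.3% of the peaks of replicate 1 and 45.4% of those of replicate 2 were intergenic. These intergenic peaks lay a median of 36.4 kb (replicate 1) and 32.6 kb (replicate 2) from the nearest protein-coding gene, and 23.4% and 21.1% of them lay over 100 kb away.

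At start sites, the mark was called for a gene when a peak lay within 1 kb of any of its TSS positions. Of 20144 protein-coding genes, 2882 were called in replicate 1 (14.3%), 2586 in replicate 2 (12.8%) and 2254 in both (11.2%). Thus 78.2% of the replicate 1 genes and 87.2% of the replicate 2 genes were called in both. These shares were above those of overlapped peaks. A gene call is the looser rule, because the peaks of the replicates need not overlap. Without chromosomes 1, 10 and 20 the share called in both was 10.2%. Long noncoding RNA genes were called in both replicates in 6.18% of 18686 cases and processed pseudogenes in 2.67% of 10080.

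Marked genes had little RNA. Among genes with an FPKM value, the 2239 called in both replicates had a median of 0.0292 and 0.0298 FPKM in RNA-seq libraries 1 and 2, the 934 called in a lone replicate had a median of 0 in each, and the 16472 called in neither had medians of 5.34 and 5.47 FPKM. Of the genes called in both, 61.9% were under 0.1 FPKM and 369 genes or 16.5% reached 1 FPKM, against 23.3% and 67.9% of the genes called in neither. On the scale log2(FPKM + 1), the median of genes called in both was 2.64 below that of genes called in neither. Genes are not replicates, so no test was made of this difference. Marked genes were also longer, with a median of 49.3 kb against 25.8 kb.

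Low RNA and a CpG-rich start site went together with the mark more than either property did by itself. A start site was called CpG-rich by the same base composition rule over the 1 kb around the outermost TSS. Below 0.1 FPKM, 55.6% of 1398 genes with a CpG-rich start site were called in both replicates, compared with 13.8% of 4409 genes without. Between 0.1 and 1 FPKM the shares were 34.8% of 1035 and 11.8% of 1055. Between 1 and 10 FPKM they were 5.41% of 4070 and 4.81% of 1454, and at 10 FPKM or more 1.08% of 4922 and 1.997% of 1302. At 10 FPKM or more the order of the shares was thus the reverse of that below 0.1 FPKM. Along the gene, coverage peaked just inside the start site. For genes under 0.1 FPKM it reached 19.1% of genes at 500 bp downstream of the TSS in replicate 1 and 14.98% at 300 bp in replicate 2, and at 20 kb downstream it was 6.58% and 1.74%. For genes at 10 FPKM or more it was 0.739% and 0.707% at the TSS itself. In replicate 1 these highly expressed genes had more coverage upstream than within the gene, with 3.28% at 20 kb upstream and 0.996% at 20 kb downstream.

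**Figure D4:**
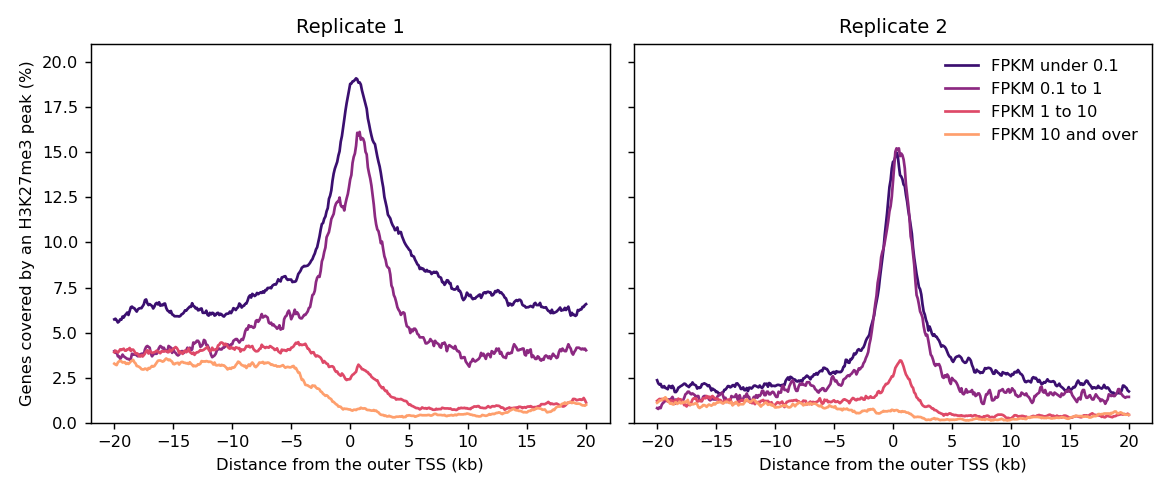
Share of protein-coding genes covered by an H3K27me3 peak (y axis, %) at each distance from the outermost TSS (x axis, kb, positive into the gene) for 4 FPKM classes in replicate 1 (left) and replicate 2 (right). Genes under 0.1 FPKM reach 19.1% and 14.98% near the TSS, and genes at 10 FPKM or more stay below 1% there.

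Gene families fixed by symbol were compared with the 11.2% of all protein-coding genes called in both replicates, and the members were read from the files by those patterns. Developmental transcription factors as a group stood above that share. The 306 genes in 8 families of such factors had 160 members called in both replicates (52.3%) and a median of 0.0545 FPKM, against 3.32 FPKM over all genes. For comparison, 55.6% of all genes under 0.1 FPKM with a CpG-rich start site were called in both. The 306 factors include expressed genes and genes without a CpG-rich start site, so these shares are not of like genes. The share among the factors inside that class was not computed. Of the 9 PAX factors, which pattern the nervous system, eye, kidney and muscle, 8 were called in each replicate. The exception was PAX8, the kidney factor expressed in these cells. The homeobox factors outside the HOX clusters had 83 of 121 members called in replicate 1, 86 in replicate 2 and 81 in both (66.9%). GATA factors had 4 of 6 in both (2 of 4 away from chromosomes 1, 10 and 20), namely GATA2, GATA3, GATA4 and GATA5, while GATA6, at 1.68 and 1.86 FPKM, had no peak in either replicate. PAX6, a factor of eye and forebrain fixed as a reference gene of the mark, was called in both replicates although it stood at 7.45 and 7.32 FPKM, and with 66 TSS positions its peaks covered 3.57% and 6.25% of its body. SOX factors had 11 of 20 in both, the basic helix-loop-helix factors of tissues such as neuron and muscle 23 of 42, T-box factors 8 of 17 and forkhead factors 15 of 52. The family members with the most shared bases differed in how far the mark reached. PAX7, a factor of muscle stem cells, had 32.5% of its 118 kb body covered in replicate 1 and 21.9% in replicate 2, with widest peaks of 21.5 and 18.4 kb. LMX1B, a factor of limb, podocytes and midbrain neurons, had 45.2% and 31.3% of 87.1 kb covered, GATA4, a factor of heart and endoderm and also a reference gene, 44.3% and 24.7% of 83.0 kb, and TBX5, a factor of heart and forelimb, 31.3% and 25.8% of 54.5 kb. All 4 were listed at 0 FPKM in both libraries. SOX5, at 1033 kb the longest of the leading genes, had widest peaks of 5.94 and 4.36 kb at its start and 0.541% and 0.351% of its body covered.

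The HOX clusters stood apart from the other homeobox genes. Of the 39 HOX genes, which set position along the body axis, 10 were called in replicate 1, 16 in replicate 2 and 10 in both (25.6%), and their median was 2.39 FPKM. Genes called in both replicates included the posterior end of 3 clusters. In HOXA only HOXA13 of 11 members was called, in HOXC the 3 called of 9 were HOXC11, HOXC12 and HOXC13, and in HOXD HOXD10, HOXD12 and HOXD13 were called together with HOXD3. In HOXB, HOXB3 and HOXB4 were called in both replicates. The 6 genes called in replicate 2 alone were HOXB1, HOXB8, HOXB13, HOXD1, HOXD4 and HOXD9, so that 7 of its 16 called genes belonged to groups 1 to 8, which act more anteriorly. HOXB3, with 12 TSS positions, also had peaks of H3K4me3 and H3K27ac in both replicates of those marks and 2.42 and 2.35 FPKM, so marked and unmarked parts of that gene cannot be told apart by a call per gene.

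Secreted signals of development were marked as well. Of the 19 Wnt ligands, 14 were called in both replicates (73.7%), and the same 14 in each. WNT8B had 58.2% of its body covered in replicate 1 and 33.1% in replicate 2, and WNT1, a signal of the midbrain and neural crest, was covered whole in both. FGF ligands had 10 of 22 in both, again with the same genes in each replicate, and BMP and GDF ligands 10 of 27. BMP7, which is needed for nephron formation in the embryo, was listed at 0 FPKM in both libraries and had 34.9% of its 97.9 kb covered in replicate 1 and 19.2% in replicate 2. Of the BMP and GDF genes away from chromosomes 1, 10 and 20, 5 of 19 or 26.3% were called in both. Chemokines, with 7 of 45 (15.6%), were close to the background.

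Ion channels and receptors of neurons were also called more often than all genes. Potassium channel genes had 39 of 95 members called in both replicates (41.1%), voltage-gated calcium and sodium channels 16 of 40 (40.0%), GABA and glycine receptors 12 of 25 (48.0%) and glutamate receptors 11 of 26 (42.3%). In these families the mark was mostly local. The median body coverage over all potassium channel genes was 0.948% in replicate 1. The monoamine and acetylcholine receptors had 24 of 56 called in replicate 1, 19 in replicate 2 and 16 in both (28.6%), and 8 of 46 (17.4%) away from chromosomes 1, 10 and 20, so that much of their excess lay on those chromosomes. Guidance genes (semaphorins, ephrins, slits, netrins and their receptors) had 23 of 69 in both, collagens 16 of 44, and cadherins and protocadherins outside the clusters 13 of 43. SLIT1, a repellent for growing axons, had 38.6% of its 188 kb covered in replicate 1 and 15.7% in replicate 2.

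Families of kidney and other cell types were marked in part. Of 18 podocyte genes, 9 were called in both replicates (50%), among them the slit diaphragm gene NPHS1 and the podocyte factors WT1 and LMX1B. Of 26 genes of the distal nephron, 8 were called in both (30.8%), including the epithelial sodium channel genes SCNN1B and SCNN1G. Proximal tubule genes, which the parent tissue of HK2 uses, had 10 of 42 called in both (23.8%). They were LRP2, AMN, SLC9A3, SLC6A19, SLC16A9, SLC22A6, SLC22A8, ANPEP, FBP1 and PCK1. The list thus included an endocytic receptor, transporters of sodium, amino acids and organic anions, and enzymes of gluconeogenesis. The gluconeogenic gene PCK1 had 79.8% of its body covered in replicate 1 and 35.8% in replicate 2, at 0.0137 and 0.0106 FPKM. HNF4A, which controls many proximal tubule genes, had a peak at a start site in replicate 1 and none in replicate 2, with 45.2% and 23.8% of its 77.1 kb body covered. Solute carriers as a whole had 62 of 348 called in both (17.8%). Endothelial genes had 4 of 15 (26.7%), and leukocyte genes, with 3 of 19 (15.8%), were close to the background.

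Several families lay below the share of all genes. Of 414 olfactory receptor genes, 24 were called in replicate 1, 5 in replicate 2 and 3 in both (0.725%), although 413 had a value and their median was 0 FPKM, so the mark was rare in this family despite its low RNA. The clustered protocadherins had 0 of 53 members called in both, the zinc finger genes of chromosome 19 had 1 of 258 and hair keratin-associated proteins 2 of 94. Part of these gaps goes with the arms. Over all protein-coding genes of the same arms, weighted by members, 4.81% were called in both for the zinc finger genes. The like share was 7.81% for the clustered protocadherins, 7.45% for the keratin-associated proteins and 10.3% for the olfactory receptors. Keratins, with 4 of 55 (7.27%), were nearer to the 11.2% of all genes. The olfactory receptor and keratin-associated protein genes had few CpG-rich start sites, 5 of 414 and 0 of 94, against 98 of 121 for the homeobox factors outside the HOX clusters. The zinc finger genes of chromosome 19 had 171 CpG-rich start sites and a median of 2.27 FPKM. Cytosolic ribosomal proteins (0 of 85), respiratory complex I (0 of 37) and the proteasome (0 of 39), which serve basic functions of every cell and had 83, 37 and 37 members at 1 FPKM or more, had no member called in both replicates. Polycomb subunits themselves had 3 of 35 called in both (8.57%), close to the background, and 1 of 27 (3.70%) away from chromosomes 1, 10 and 20. The 3 were BMI1, PHC2 and CBX8, which encode parts of polycomb repressive complex 1. All 3 were expressed, and BMI1 stood at 9.57 and 9.34 FPKM with H3K4me3 and H3K27ac peaks in every replicate.

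**Figure D5:**
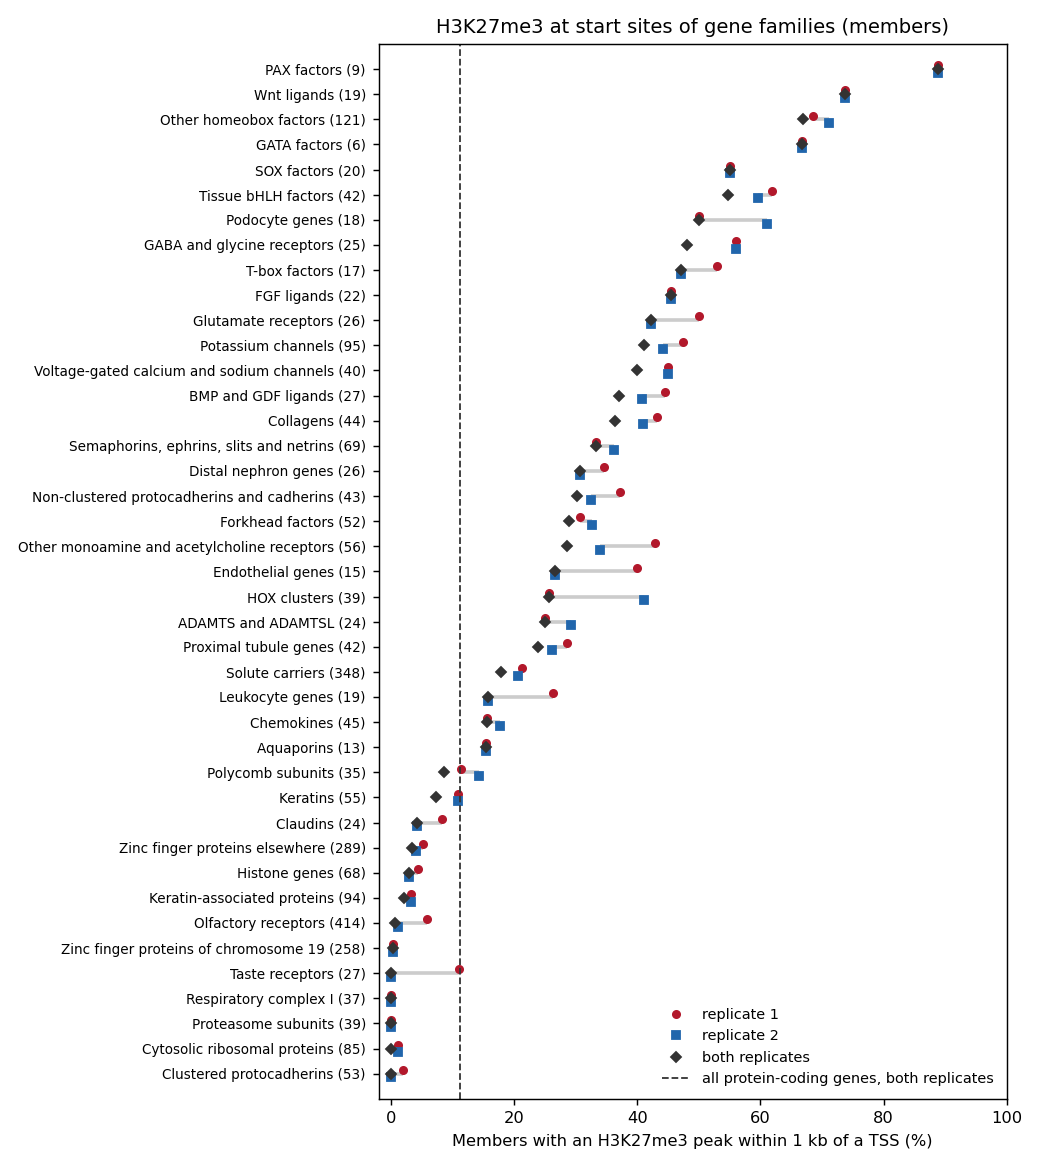
Share of members called for H3K27me3 near a TSS (x axis, %) in 41 gene families (y axis, with the number of members) in replicate 1 (red circles), replicate 2 (blue squares) and both replicates (black diamonds). The dashed line is the 11.2% of all protein-coding genes called in both; PAX factors (8 of 9) lie highest, and olfactory receptors, chromosome 19 zinc finger genes and housekeeping families lie near 0.

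Genes with most of the body covered were mostly short, and many were developmental factors. Peaks covered at least 50% of the body of 380 protein-coding genes in replicate 1 (1.89% of all), 180 in replicate 2 (0.894%) and, by shared bases, 160 (0.794%). Of these 160, 76 belonged to the 8 transcription factor families, which hold 1.52% of all genes. The genes of those families were themselves short, with a median length of 6.04 kb. The 160 covered genes had a median length of 3.58 kb against 27.2 kb over all protein-coding genes. Of the 160, 93.1% were under 10 kb, against 26.1% of all genes. In replicate 1 alone the longest body covered to this extent was 308 kb, whereas in replicate 2 it was 31.6 kb. Among 3665 genes of at least 100 kb, 751 (20.5%) had the mark at a start site in both replicates, but the mean share of their bodies covered was 2.24% in replicate 1 and 0.668% in replicate 2. Only 7 of them were covered by at least 50% in replicate 1, and none in replicate 2. WDFY4, a gene of immune cells on 10q with 0 FPKM in both libraries, had the highest share of these long genes in replicate 1, with 60.7% of 298 kb, and 22.04% in replicate 2.

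Shared bases covered the entire body of 39 genes of at least 2 kb. The 12 of these named by alphabetical order were ATOH1, BARHL2, C1QL2, DMRTA2, EGR4, EMX2, EVX1, FEV, FEZF2, FOXC2, FOXL2 and HAND2. All are transcription factor genes except C1QL2, which encodes a secreted protein of synapses. FEZF2, a factor of forebrain neurons on chromosome 3 from 62355356 to 62359999 (3p, an arm of low peak density), lay in a peak of 16.2 kb in replicate 1 and of 8.41 kb in replicate 2 and was listed at 0 FPKM in both libraries. HAND2, a factor of heart and limb on chromosome 4 from 174446120 to 174451380, lay in peaks of 20.2 and 10.0 kb, and had 0.0570 FPKM in library 1 and 0 in library 2. EMX2, a factor of forebrain and urogenital development on chromosome 10 from 119301956 to 119309057, lay in peaks of 15.5 and 15.6 kb, a near-equal width in both replicates. FOXC2 had the most RNA of the 12, with 0.641 and 0.493 FPKM (0.567 ± 0.104, SD, n = 2), and its peaks measured 5.83 and 4.82 kb. Of the 4 reference genes of polycomb repression, HOXD13 and NKX2-5 were likewise covered whole in both replicates, at 0 to 0.0471 FPKM, and PAX6 and GATA4 were covered in part, as given above.

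A few covered genes had RNA. Among genes covered by at least 50% in both replicates, the 5 with the highest mean were HBA1 (3.37 ± 0.00734 FPKM, SD, n = 2), TLX3 (3.35 ± 0.509), MT1A (2.29 ± 0.290), LHX2 (1.80 ± 0.318) and CYP26A1 (1.65 ± 0.692). HBA1 and MT1A have near-identical relatives next to them, the haemoglobin gene HBA2 and other metallothioneins, so their values are uncertain. TLX3, a homeobox factor of sensory neurons, was covered whole in both replicates and lay in peaks of 13.1 and 10.4 kb. LHX2, a homeobox factor of forebrain and limb, was also the longest gene so covered, with 60.7% and 52.1% of 31.6 kb, and it had H3K4me3 and H3K27ac peaks near a TSS in both replicates of each mark. It was followed in length by the homeobox genes HMX1 and OTX2, the opioid precursor gene PDYN and the zinc finger factor gene SCRT2, with HMX1 covered by 72.5% and 69.1% of 25.8 kb and OTX2 by 100% and 70.6% of 16.8 kb. PDYN and SCRT2, both on 20p, were covered by 76.5% and 59.1% of 15.5 kb and by 60.9% and 62.6% of 14.2 kb. No more than 9 of the 160 genes covered by shared bases reached 1 FPKM.

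The widest marked stretches included some over developmental genes and some far from any protein-coding gene. After gaps of up to 3 kb were joined, the shared bases formed 14000 stretches with a median of 799 bp, of which 674 reached 8 kb. Of the 10 widest, 6 were on chromosome 20. The widest, at chr1:148851217-148914224, spanned 63008 bp with 40503 bp of shared bases and lay 92.9 kb from the nearest annotated protein-coding gene, NBPF16, which had no peak and no FPKM value. Over BMP7 a stretch of 43231 bp (chr20:55827339-55870569) began inside the gene and ran past its start site. At the end of the HOXC cluster a stretch of 41218 bp (chr12:54319878-54361095) held HOXC13 and HOXC12, and HOXC12 was covered whole in both replicates. TLX1, a homeobox factor of spleen development, lay in a stretch of 39114 bp on chromosome 10, and FOXA2, a factor of endoderm and floor plate, in a stretch of 37784 bp on 20p. The stretch of 38608 bp on chromosome 6 held PRDM13, a factor of spinal cord and retina, together with a part of TSTD3. A stretch of 36335 bp on 20p reached into TMC2, a gene of inner ear hair cells, which had 57.8% of its 107 kb covered in replicate 1 and 22.1% in replicate 2. Other wide stretches on chromosome 20 lay 11.5 kb from NPEPL1, 84.0 kb from KCNG1 and 35.98 kb from NKX2-2. Part of the widest marking there thus lay outside protein-coding genes. These distances do not take noncoding genes into account.

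H3K27me3 overlapped H3K4me3 at a minority of peaks and H3K27ac hardly at all. Of the replicate 1 peaks, 4.14% overlapped an H3K4me3 peak of replicate 1 and 10.8% one of replicate 2, and for the replicate 2 peaks the shares were 6.65% and 14.9%. With H3K27ac, 0.502% and 0.1003% of the replicate 1 peaks and 1.04% and 0.438% of the replicate 2 peaks overlapped. In bases, H3K27ac peaks covered 3.75% and 1.36% of the genome but 0.188% and 0.0266% of the H3K27me3 bases of replicate 1, and 0.712% and 0.307% of those of replicate 2. The H3K4me3 lists covered 1.47% and 1.69% of the genome and 1.76% and 4.29% of the replicate 1 bases, and 6.12% and 12.7% of the replicate 2 bases. Overlap with H3K4me3 depended on the width of the H3K27me3 peak. In replicate 2 it was 1.93% of peaks under 500 bp and 68.6% of the 86 peaks of at least 8 kb with H3K4me3 replicate 1, and 87.2% of those 86 peaks lay within 1 kb of a TSS, against 9.93% of peaks under 500 bp. Per gene, 1380 of the 2239 genes called for H3K27me3 in both replicates (61.6%) had an H3K4me3 peak at that distance from a TSS in both of its replicates, and 262 (11.7%) had H3K27ac in both, beside 69.6% and 54.5% of all protein-coding genes. The marks can lie on different start sites of a gene, or on different cells or alleles, which these peak lists do not separate.

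Taken per list, H3K27me3 differed from the other marks in position more than in width. Genic bases were 52.4% and 54.4% in the H3K27me3 lists, 79.8% and 73.4% in the H3K4me3 lists and 75.9% and 74.9% in the H3K27ac lists. Peaks within 1 kb of a TSS were 14.8% and 16.0% for H3K27me3, 60.0% and 34.4% for H3K4me3 and 34.9% and 42.9% for H3K27ac. CpG-rich peaks were 2.96% and 6.62% for H3K27me3, 42.7% and 28.9% for H3K4me3 and 17.9% and 24.1% for H3K27ac. In each of these 3 measures both H3K27me3 lists lay below all 4 other lists. The exact two-sided permutation test of 2 lists against 4 gave p = 0.133 for each, the smallest p this design allows, with 0.178 after Benjamini-Hochberg adjustment over 4 measures, so no difference could pass a threshold of 0.05. Median widths overlapped between marks, at 1181 and 535 bp for H3K27me3, 1194 and 434 bp for H3K4me3 and 1357 and 657 bp for H3K27ac (exact permutation p = 0.80, adjusted 0.80).

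The genes the study followed fell on both sides. The study took ITGA3 and GLUD1 as tubule genes. These had no H3K27me3 base in their bodies in either replicate, and their RNA stood at 144 ± 4.61 and 97.0 ± 1.21 FPKM (SD, n = 2). WT1, the glomerular factor, was listed at 0 FPKM and had a TSS call in each replicate, but its body was covered by 0% in replicate 1 and 1.03% in replicate 2, with no shared base in the body. In the neighbourhood of NUDT7, VAT1L, CLEC3A and WWOX on chromosome 16, NUDT7 had no marked base. VAT1L had TSS calls in both replicates, with 9.24% and 2.43% of its body covered at 0.0138 and 0.0142 FPKM. CLEC3A had no TSS call in either replicate but 27.3% and 7.09% of its body covered, at 0 FPKM in both libraries. WWOX, at 6.73 and 5.84 FPKM, had a TSS call in replicate 1 only and 2.54% and 0.123% of its body covered. DAB2, SLC34A1, GAPDH and ACTB had no marked base in their bodies in either replicate. SLC34A1, a phosphate transporter of the proximal tubule, was nevertheless low at 0.0540 and 0.164 FPKM.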

How the data were processed

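The authors made the peak lists with MACS2 from Bowtie2 alignments to hg19, leaving out reads with several possible positions. Each deposited list belongs to a single replicate and holds peak positions, with no score. Peak calling thresholds are not given in the sources used here. The RNA values are transcript FPKM and TPM that the authors obtained with StringTie 1.3.3, and the deposited headers name GENCODE version 27, with transcript coordinates of GRCh38. Here these were summed per gene and joined to GENCODE version 44 mapped to GRCh37 by Ensembl identifier alone. Of 20144 protein-coding genes, 19645 had an FPKM, and 19 copies of pseudoautosomal genes on chromosome Y were left out.

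Peaks on 24 chromosomes were intersected with genes, TSS positions and the GRCh37 sequence in Python 3.11.15 with numpy 2.4.6, pandas 2.3.3 and numba 0.67.0, after interval functions were tested on simulated data. Permutation tests used scipy 1.17.1 and figures matplotlib 3.10.9. Windows were 1 kb around a TSS, and bodies were called at 50% covered. Genes were named by rule: the 12 bodies of at least 2 kb most covered by shared bases, the member of each of 41 families with the most shared bases, the nearest genes of the 10 widest stretches, the 5 most expressed and 5 longest covered genes, genes the study names, and reference genes. Called members listed within families, and WDFY4, were named after their values were seen. Members and lists were chosen with earlier results of these data known. Sequences are from the GRCh37 assembly. Alternatives covered peak width, joining, overlap, TSS window, body coverage, gene set, RNA unit, replicates and chromosomes. Some genes and sequences that these rules select are not reported here.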

Additional observations from a re-analysis of the deposited data

Results flagged for a closer look

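Peaks outside chromosomes 1 to 22, X and Y were not used in any comparison. The H3K27me3 lists held 66 such peaks in replicate 1 and 107 in replicate 2, on unplaced or alternate contigs of hg19, and they are named here because they are signal outside the regions described. No control list was available for them in this work, and their cause was not tested.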

How the results depend on the processing

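Of 71 alternative values over 28 results, 37 were counted as kept, 33 moved beyond a limit and 1 changed sign. The limit was the spread between replicates, the counting interval or 1.5 times. For H3K27me3 minus the other marks only the sign was judged, with no limit on size. The difference in median width there counted as kept although it went from -52.5 to -197 bp for peaks of at least 500 bp. The overlap of replicate 1 peaks with replicate 2 was 9.73% when 50% of the peak had to be covered, 26.3% for peaks of at least 500 bp, 39.2% within 1 kb and 27.5% without chromosomes 1, 10 and 20, and that of replicate 2 peaks was 59.1%, 76.2%, 78.4% and 61.8%. Replicate 2 kept 17749 peaks of at least 500 bp and 21142 regions after joining. By protein-coding genes alone, 38.8% of shared bases were genic. Leaving out a replicate gave 52.4% to 54.4% genic, a difference from the genome of -9.55 to -7.51 percentage points. Without chromosomes 1, 10 and 20 the genic share was 60.6% and the difference -1.10 points, and 10.2% of genes were called at a TSS in both replicates. By midpoint, 45.4% of replicate 2 peaks were intergenic. Bodies covered by shared bases were 308 at 25% and 241 after joining, and 180 to 380 when a replicate was left out. The difference of medians of log2(FPKM + 1) was -2.61 to -2.53 when an H3K27me3 replicate was left out, -2.65 to -2.62 when an RNA-seq library was, -3.88 with TPM, -2.60 for genes of at least 0.1 FPKM and -5.39 with a pseudocount of 0.1. Required to cover 50% of the H3K27me3 peak, H3K4me3 lists overlapped 0.499% and 1.56% of replicate 1 peaks and 2.41% and 6.14% of replicate 2 peaks, and H3K27ac lists 0.0959% and 0.0174%, and 0.401% and 0.267%. Median width, H3K27me3 minus the other marks, was 44 bp against H3K4me3 alone, where it was -52.5 bp against both marks. The cause of these moves was not tested beyond what each setting leaves out or adds.

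No paired analysis was possible because the results come from no test across paired samples. The lists hold no score or depth, there are 2 replicates, so absence of a peak is no measure of absence of the mark.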
